A study of Homo sapiens with 24 samples.

Results

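Toll-like receptors are pattern recognition receptors that sense microbial lipids, proteins and nucleic acids. The genes described here are TLR1, TLR2, TLR3, TLR4, TLR6, TLR7, TLR9 and TLR10, together with MYD88, the adaptor of nearly all of them, and UNC93B1, which carries the nucleic acid receptors to endosomes. These 10 genes were chosen by name and make up 10 of the 19775 genes on the arrays. They are measured by 20 of the 54613 probe sets, and the brightest probe set over the 24 arrays gave the main value of each gene.

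The cells were KARPAS-422, an established human lymphoma line of the diffuse large B-cell type. All groups came from this line, and the labels give its EZH2 genotype as Y641N, a change in the catalytic subunit of Polycomb repressive complex 2 that silences genes by methylating histone H3. Cells were treated with an EZH2 inhibitor, which the labels do not name, at 5 uM or with DMSO for 1, 2, 3 or 6 days, and each of the 8 groups had 3 arrays that the labels call biological replicates. The values are log2 expression made by the submitters with RMA, so a difference of 1 is a doubling, and a level on 1 probe set cannot be set against a level on another.

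In B cells the receptors fall into a surface group and an endosomal group. TLR1, TLR2 and TLR6 form pairs at the cell surface that bind bacterial lipopeptides, TLR4 binds lipopolysaccharide with its co-receptor LY96, and TLR10 is a surface relative whose ligand is less settled. TLR3, TLR7 and TLR9 sit in endosomes and sense double-stranded RNA, single-stranded RNA and unmethylated CpG DNA, and they reach that compartment bound to UNC93B1. TLR3 signals through the adaptor TICAM1, while the other endosomal receptors signal through MYD88, IRAK kinases and TRAF6 to NF-kB and interferon regulatory factors. Resting human B cells are known for TLR7, TLR9 and TLR10, and activating mutations of MYD88 are recurrent in diffuse large B-cell lymphoma.

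Array medians lay between 4.958 and 5.032. Of 6 measured B cell markers, 6 lay above the median gene in every group, which is a rough guide since RMA gives no detection calls. Their summed log2 level was 63.4 to 63.9 on the day 6 inhibitor arrays and 61.4 to 62.1 on the day 6 DMSO arrays, and 3 of the 6 were higher with the inhibitor. Of 9 measured myeloid markers, 1 lay above the median gene in the day 6 inhibitor group (LYZ) and 0 in the day 6 DMSO group. Their summed level was 37.3 to 37.9 with the inhibitor and 36.3 to 37.5 with DMSO, with 1 marker higher and 4 lower. The 6 plasma cell markers summed to 44.1 to 44.4 with the inhibitor and 40.9 to 42.1 with DMSO at day 6 (3 higher, 2 lower). JCHAIN (3.39), MZB1 (0.94) and PRDM1 (0.26) were higher, and SDC1 (-1.02) and XBP1 (-0.79) were lower, so the sum rests largely on JCHAIN. The 8 T and NK cell markers summed to 46.7 to 48.2 with the inhibitor and 49.6 to 50.4 with DMSO (0 higher, 2 lower), and the 6 plasmacytoid dendritic cell markers to 24.6 to 25.2 with the inhibitor and 25.4 to 26.4 with DMSO (0 higher, 3 lower). In both day 6 groups, 5 of the 6 plasma cell and 3 of the 8 T and NK cell markers lay above the median gene. For the plasmacytoid dendritic cell markers this number was 0 with the inhibitor and 1 with DMSO. Their part in the results below was not tested.

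In the fit without a block for replicate number, 6 of the 10 genes differed between inhibitor and DMSO at day 6, and TLR7 and MYD88 had already done so at day 2. A gene was called when its limma p, adjusted over all 19775 genes of the comparison, was under 0.05. At day 1, 0 of the 10 were called (limma, 1 at an unadjusted p under 0.05), against 0.485% of all genes, 0.475% higher and 0.0101% lower. At day 2, 2 were higher and 0 lower, against 4.39% of all genes called, 3.57% higher and 0.824% lower. At day 3 again 2 were higher and 0 lower, against 16.3% called, 8.64% higher and 7.65% lower. At day 6, 5 were higher (TLR7, MYD88, UNC93B1, TLR1 and TLR10) and 1 was lower (TLR2), against 45.4% of all genes called, 18.5% higher and 26.9% lower. The count of called members at day 6 is therefore near the background, and what follows describes single genes. With the replicate block TLR3 was called lower at day 6 too (limma, -1.18, adjusted p = 1.64e-07).

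The median difference of the 10 genes was 0.04, 0.07, 0.02 and 0.38 at days 1, 2, 3 and 6, against -0.009, -0.045, -0.045 and -0.109 over all genes. Setting the median gene to no change at day 6 left 5 members higher and 1 lower, whereas over all genes 4505 were then higher and 3141 lower, in place of 3653 and 5324. The 3 inhibitor and 3 DMSO arrays did not overlap for 1, 3, 4 and 6 members at days 1, 2, 3 and 6, against 10.7%, 22.8%, 30.8% and 52.2% of all genes. Over the 20 probe sets, 0, 2, 4 and 10 were called higher and 0, 0, 0 and 2 lower at days 1, 2, 3 and 6, against 0.19%, 2.26%, 10.3% and 36.7% of all probe sets called. Those shares count both directions together, and the 20 probe sets come from 10 genes, so they are not independent. In RNA from a whole culture, a change in the share of cells of a type and a change in RNA per cell cannot be told apart.

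**Figure D1:**
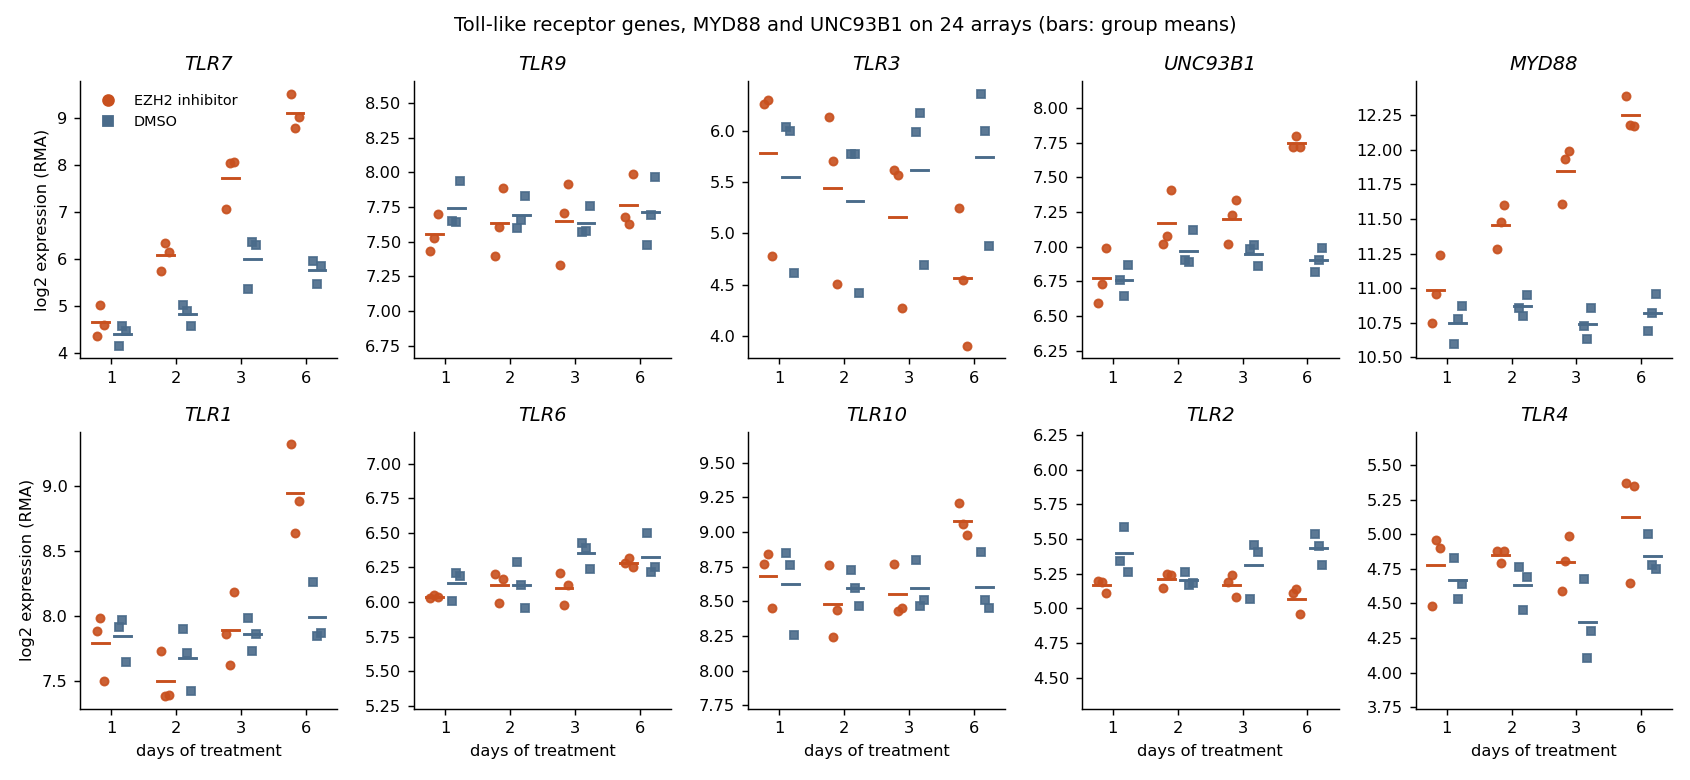
Log2 expression (RMA) of the 10 genes on each array by days of treatment, with the EZH2 inhibitor as circles left of DMSO as squares and bars at the group means. TLR7 and MYD88 separate from day 2, UNC93B1 from day 3 and TLR1 at day 6, while the TLR9 groups overlap on every day.

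TLR7, the endosomal receptor of single-stranded RNA, showed the largest difference of the 10 genes. At day 6 its log2 values were 9.52, 8.79 and 9.02 with the inhibitor, against 5.95, 5.47 and 5.85 with DMSO. Every inhibitor array lay more than 2 log2 units above every DMSO array. The difference was 3.35 ± 0.27 (SE, n = 3 arrays per group), a fold of 10.2 (limma, adjusted p = 1.4e-09).

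The rise of TLR7 built up over the time course. At day 1 the values were 4.36, 5.02 and 4.58 with the inhibitor and 4.15, 4.57 and 4.46 with DMSO, and the groups overlapped (difference 0.26 ± 0.27, adjusted p = 1). At day 2 they were 5.74, 6.33 and 6.15 with the inhibitor and 5.02, 4.89 and 4.56 with DMSO. The groups no longer overlapped, and TLR7 rose by 1.25 ± 0.27 (adjusted p = 0.0076). At day 3 they were 7.06, 8.05 and 8.06 with the inhibitor and 5.36, 6.35 and 6.29 with DMSO, again without overlap, and the difference was 1.72 ± 0.27 (adjusted p = 1e-04). In both arms the array numbered 1 was the lowest of the 3 at day 3. The day 2 call was lost without inhibitor array 2 of that day (1.12, adjusted p = 0.053), without all arrays numbered 3 (1.08, adjusted p = 0.205) and with the mean of the probe sets of TLR7 (0.67, adjusted p = 0.079). The calls at days 3 and 6 were kept in each alternative run.

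The second probe set of TLR7, 222952_s_at, changed less. It read 7.64, 6.52 and 6.74 with the inhibitor at day 6, against 5.20, 5.27 and 5.05 with DMSO, again without overlap. Its differences were -0.02, 0.09, 0.71 and 1.79 at days 1, 2, 3 and 6, called at days 3 and 6 (adjusted p = 0.025 and 2.3e-07 over all probe sets).

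TLR7 also differed with time within the arms. From day 1, the day 6 value was higher by 4.46 ± 0.27 in the inhibitor arm (adjusted p = 2.9e-11). In the DMSO arm it was higher by 1.37 ± 0.27 (adjusted p = 0.026), with all day 6 arrays above all day 1 arrays, in a comparison that called 57 of the 19775 genes (0.288%, with 0.238% higher and 0.0506% lower). TLR7 was the 1 member among them. The DMSO call rested on few arrays: without a single array the adjusted p ranged from 0.0438 to 0.195 and lost the call in 5 of 6 cases, and it was 0.107 with the mean of the probe sets and 0.053 with a trended and robust spread. The inhibitor difference at day 6 minus that at day 1 was 3.09 ± 0.39 (adjusted p = 2.5e-06), in a comparison that called 26.7% of all genes, 12.3% higher and 14.4% lower.

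TLR8, the receptor next to TLR7 in the GRCh38.p14 annotation and likewise a sensor of single-stranded RNA, did not share the rise. Its day 6 values were 3.68, 3.77 and 3.47 with the inhibitor, against 3.83, 3.98 and 4.07 with DMSO. The groups did not overlap and TLR8 was lower by 0.32 on the log2 scale (difference -0.32 ± 0.11, adjusted p = 0.018), a call that several alternatives lost, among them the loss of DMSO array 2 or 3 or of inhibitor array 3, and setting the median gene to no change. PRPS2, the other neighbour of TLR7, was lower (-0.42 ± 0.15, adjusted p = 0.023).

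UNC93B1, the chaperone that delivers TLR7, TLR9 and TLR3 to endosomes, rose at day 6. Its values were 7.72, 7.80 and 7.72 with the inhibitor, against 6.82, 6.90 and 6.99 with DMSO. The inhibitor arrays spanned less than 0.1 log2 units and all lay above the DMSO arrays. The difference was 0.85 ± 0.11 (1.8-fold, adjusted p = 1.5e-06), after 0.01, 0.20 and 0.25 at days 1, 2 and 3. The day 3 value was not called (adjusted p = 0.14), although the inhibitor values of 7.02, 7.23 and 7.34 all lay above the DMSO values of 6.98, 7.01 and 6.86, and a block for the replicate number gave an adjusted p of 0.0499.

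The 3 probe sets of UNC93B1 did not read alike at day 6. 225869_s_at read 7.18, 7.45 and 7.58 with the inhibitor and 5.60, 6.37 and 6.87 with DMSO, a difference of 1.12 ± 0.41 (adjusted p = 0.035 over all probe sets). 227483_s_at read 5.15, 4.91 and 4.95 with the inhibitor and 5.22, 5.11 and 5.37 with DMSO, a difference of -0.23 ± 0.12 that was not called (adjusted p = 0.15). The brightest set, 220998_s_at, gave the values above. The s in all 3 names marks probe sets that can match more than 1 transcript.

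TLR9, the CpG DNA receptor, showed no difference that passed the test on any day. Its day 6 values were 7.68, 7.63 and 7.99 with the inhibitor, against 7.48, 7.69 and 7.97 with DMSO, and the groups overlapped. The difference was 0.05 with a 95% confidence interval of -0.26 to 0.36 (adjusted p = 0.8), and it was -0.19, -0.06 and 0.01 at days 1, 2 and 3. The array numbered 3 was the highest of its group in all 8 groups, by 0.30 on average over the mean of the other two.

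TLR3, the double-stranded RNA receptor, varied more between replicate numbers than between treatments. At day 6 it read 5.25, 4.55 and 3.91 with the inhibitor, against 6.36, 6.00 and 4.88 with DMSO. The array numbered 3 was the lowest in both arms, and the groups overlapped because DMSO array 3 lay below inhibitor array 1. The same array was lowest in all 8 groups, by 1.33 on average, a gap whose size ranked 4 among the 19775 genes. For comparison, 323 genes (1.63%) were lowest on that number in all 8 groups, and 14 genes had an average gap over 1 in either direction.

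The day 6 difference of TLR3 was -1.18 ± 0.56 and was not called (adjusted p = 0.092). Within replicate numbers 1, 2 and 3 it was -1.11, -1.45 and -0.97, lower with the inhibitor in 3 of 3. Blocked by replicate number, the same difference had an SE of 0.13 and an adjusted p of 1.64e-07. Without all arrays numbered 3 it was -1.28 (adjusted p = 0.000102), a setting added after the low values were seen, and without DMSO array 3 of day 6 it was -1.61 (adjusted p = 0.0381). At day 3 the difference was -0.46 (adjusted p = 0.65), within numbers -0.37, -0.60 and -0.41, and the block gave an adjusted p of 0.0124. At days 1 and 2 it was 0.23 and 0.13, not called with or without the block. Of the other probe sets, 242667_at was lower at day 6 (-0.51 ± 0.17, adjusted p = 0.025). It was dim, with 3.31, 2.70 and 3.01 with the inhibitor and 3.75, 3.34 and 3.45 with DMSO, all below the array medians. Without the block 239587_at was not called (-0.71 ± 0.56, adjusted p = 0.34). It read 4.37, 3.40 and 3.51 with the inhibitor and 5.04, 4.57 and 3.79 with DMSO. Both sets were lower within each number. On 239587_at the array numbered 3 was the lowest in every group but the day 6 inhibitor group. Blocked values for these sets are not given here.

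**Figure D2:**
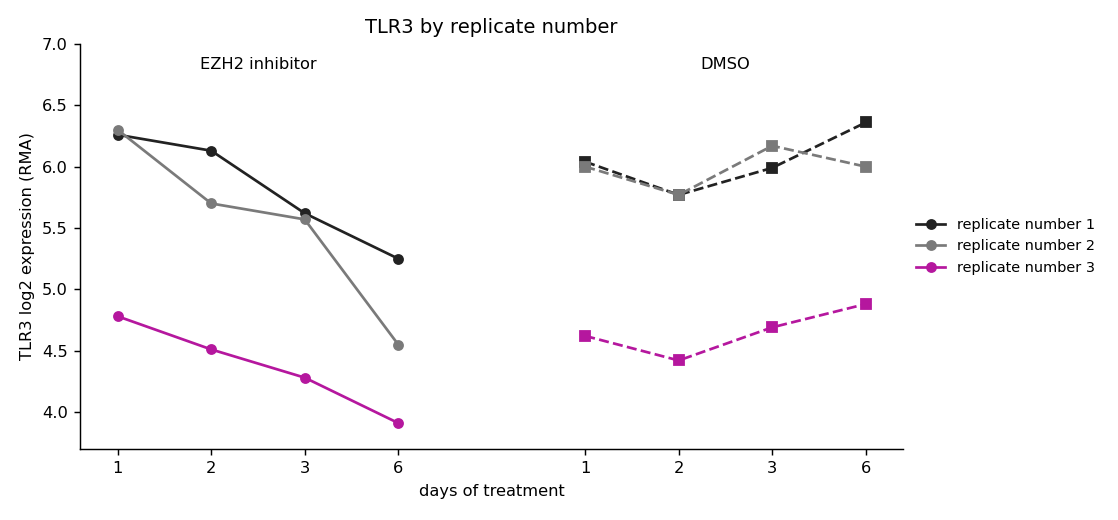
TLR3 log2 expression (RMA) by days of treatment with the EZH2 inhibitor (left, circles) and DMSO (right, squares), with 1 line for each replicate number. The line of number 3 lies lowest throughout, and at day 6 each inhibitor value lies below the DMSO value of its own number, by 1.11, 1.45 and 0.97.

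MYD88, the adaptor that links most Toll-like receptors and the interleukin-1 receptor family to IRAK kinases, rose from day 2 on. At day 6 it read 12.39, 12.18 and 12.17 with the inhibitor, against 10.69, 10.82 and 10.96 with DMSO. All inhibitor arrays lay more than 1 log2 unit above all DMSO arrays. The difference was 1.42 ± 0.12 (2.68-fold, adjusted p = 2.8e-09).

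The earlier days showed the same order. At day 1 MYD88 read 10.75, 10.96 and 11.24 with the inhibitor and 10.60, 10.78 and 10.87 with DMSO, overlapping and not called (0.23 ± 0.12, adjusted p = 0.92). At day 2 it read 11.28, 11.48 and 11.60 with the inhibitor and 10.86, 10.80 and 10.95 with DMSO (0.58 ± 0.12, adjusted p = 0.0052). At day 3 it read 11.61, 11.93 and 11.99 with the inhibitor and 10.73, 10.63 and 10.86 with DMSO (1.10 ± 0.12, adjusted p = 1.3e-06). From day 2 the arms did not overlap. DMSO values stayed between 10.60 and 10.96 over the 4 days, and the DMSO arm was not called over time (0.07 ± 0.12, adjusted p = 0.93). MYD88 has 1 probe set, and each call kept its side of the threshold in all alternatives run.

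Promoters from RefSeq (GRCh38.p14, 250 bases before to 50 after the start) were found for 6 of the 10 genes: TLR2, TLR3, TLR4, TLR6, TLR9 and MYD88. The core of the interferon-stimulated response element, GAAA, any 2 bases and GAAA on either strand, occurred in MYD88 and TLR3 and in 3.65% of 27305 promoters. These promoters are shown because MYD88 rose while TLR3 was lower within each replicate number at day 6. Capitals mark the match, which in TLR3 lies on the other strand. MYD88 is chr3:38138411-38138710 and TLR3 is chr4:186068906-186069205, both on the plus strand, 5′ to 3′.
MYD88: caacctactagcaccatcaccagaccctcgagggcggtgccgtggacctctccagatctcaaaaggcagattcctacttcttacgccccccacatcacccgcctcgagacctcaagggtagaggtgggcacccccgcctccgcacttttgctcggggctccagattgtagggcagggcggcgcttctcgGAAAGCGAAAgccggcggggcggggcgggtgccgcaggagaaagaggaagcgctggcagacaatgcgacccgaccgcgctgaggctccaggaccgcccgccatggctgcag
TLR3: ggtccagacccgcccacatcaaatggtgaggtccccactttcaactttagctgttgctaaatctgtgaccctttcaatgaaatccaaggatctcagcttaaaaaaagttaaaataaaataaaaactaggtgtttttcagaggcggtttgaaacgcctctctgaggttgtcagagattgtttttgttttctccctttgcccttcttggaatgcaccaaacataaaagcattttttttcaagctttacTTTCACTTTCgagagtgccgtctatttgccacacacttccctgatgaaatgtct
The match spans -61 to -52 from the start in MYD88 and -4 to 6 in TLR3. The gamma-activated site, TTCNNNGAA on either strand, was found at 1 place in MYD88, where it overlaps the interferon element, and at 2 places in TLR3, and in 7.88% of promoters. The kB consensus, bound by NF-kB, matched 0 of the 6 promoters and 10.8% of all. CpG dinucleotides numbered 33 in TLR2, 25 in MYD88, 8 in TLR4, 5 in TLR3, 5 in TLR6 and 2 in TLR9, with a median of 14 over all promoters. A match is a description of letters and shows no binding.

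TLR1, TLR6 and TLR10 are relatives that lie next to each other in the GRCh38.p14 annotation, and they behaved differently at day 6. TLR1, which pairs with TLR2 on triacylated lipopeptides, read 9.32, 8.64 and 8.88 with the inhibitor, against 8.26, 7.84 and 7.87 with DMSO. All inhibitor arrays lay above all DMSO arrays. The rise was 0.96 ± 0.18 (1.95-fold, adjusted p = 0.00012), and it was called in each alternative run.

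Before day 6 TLR1 showed no called difference, with -0.05, -0.17 and 0.03 at days 1, 2 and 3. The lowest day 3 array was 7.62 with the inhibitor and 7.73 with DMSO, and the groups overlapped on each of those days. The inhibitor difference was larger at day 6 than at day 1 by 1.01 ± 0.25 (adjusted p = 0.0037). Averaged over the 4 days it was 0.19 and not called (adjusted p = 0.083), and with the replicate block it was called (adjusted p = 0.0384).

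TLR6, which pairs with TLR2 on diacylated lipopeptides, read 6.28, 6.32 and 6.25 with the inhibitor at day 6, against 6.50, 6.22 and 6.25 with DMSO. The groups overlapped (-0.04, 95% confidence interval -0.23 to 0.16, adjusted p = 0.75). At day 3 all inhibitor values (6.21, 5.98 and 6.12) lay below all DMSO values (6.43, 6.39 and 6.24). That difference of -0.25 ± 0.09 was not called (adjusted p = 0.077), and with the replicate block its adjusted p was 0.0462. The second TLR6 probe set gave 0.03 ± 0.15 at day 6.

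TLR10 read 9.21, 9.06 and 8.98 with the inhibitor at day 6, against 8.86, 8.51 and 8.45 with DMSO. The groups did not overlap, and TLR10 rose by 0.48 ± 0.16 (1.39-fold, adjusted p = 0.018). This call was lost without DMSO array 2 (adjusted p = 0.066), DMSO array 3 (0.078) or inhibitor array 1 (0.069) of day 6, without all arrays numbered 3 (0.056), and with the mean of its probe sets (0.26, adjusted p = 0.069).

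The second TLR10 probe set showed no such difference. It read 7.71, 7.38 and 7.72 with the inhibitor and 7.68, 7.38 and 7.61 with DMSO, which overlapped (0.04 ± 0.13, adjusted p = 0.82). The brightest set is of the x type, in which some probes can match other transcripts. The genes flanking the cluster, KLF3 and FAM114A1, were not called at day 6 (-0.08 and -0.23, adjusted p = 0.58 and 0.23).

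TLR2, the shared partner of TLR1 and TLR6, was the 1 member called lower at day 6 without the replicate block. At day 6 it read 5.11, 5.14 and 4.96 with the inhibitor, against 5.54, 5.45 and 5.31 with DMSO, and every inhibitor array lay below every DMSO array. It fell by 0.36 on the log2 scale (difference -0.36 ± 0.10, adjusted p = 0.0048), and by 0.25 when the median gene was set to no change (adjusted p = 0.0475). The TLR2 signal was dim, with these values close to the array medians of 4.958 to 5.032. At day 1 the groups also did not overlap (5.20, 5.19 and 5.11 with the inhibitor, 5.34, 5.59 and 5.26 with DMSO), but the difference of -0.23 was not called (adjusted p = 0.71). At days 2 and 3 it was 0.01 and -0.14, not called. The genes on either side of TLR2 in the annotation, TMEM131L and RNF175, were higher at day 6 (1.56 ± 0.20 and 1.05 ± 0.14, adjusted p = 8.5e-07 and 1.9e-06).

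TLR4, the lipopolysaccharide receptor, depended on the probe set. Its brightest set, 1552798_a_at, read 5.37, 4.65 and 5.35 with the inhibitor at day 6, against 5.00, 4.78 and 4.75 with DMSO. Inhibitor array 2 lay below all DMSO arrays, and the difference of 0.28 ± 0.17 was not called (adjusted p = 0.19). Averaged over the 4 days this set was higher by 0.26 ± 0.09 (adjusted p = 0.017).

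The other 3 probe sets of TLR4 were higher at day 6. 224341_x_at read 5.80, 5.03 and 6.14 with the inhibitor and 3.00, 3.12 and 3.40 with DMSO, a difference of 2.48 ± 0.25 (adjusted p = 4e-08 over all probe sets). 232068_s_at read 5.14, 3.66 and 5.59 with the inhibitor and 2.60, 2.70 and 3.01 with DMSO, a difference of 2.03 ± 0.28 (adjusted p = 5.6e-06). In both the groups did not overlap, and inhibitor array 2 was the lowest of its group, as it was on the brightest set. 221060_s_at read 4.30, 4.43 and 5.07 with the inhibitor and 3.60, 3.77 and 3.66 with DMSO, a difference of 0.93 ± 0.14 (adjusted p = 2.1e-05). The x and s in these names mark sets whose probes can match more than 1 transcript. In the order given, the 3 sets had means of 3.58, 3.02 and 3.92 over the 24 arrays, dim beside array medians of 4.958 to 5.032. The mean of the 4 sets differed by 1.43 at day 6 (adjusted p = 7.25e-07) and by 0.57 at day 3 (adjusted p = 0.0285), so TLR4 passes the test on that summary and not on its brightest set. Without inhibitor array 2 of day 6 the brightest set was called too (0.51, adjusted p = 0.0129).

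**Figure D3:**
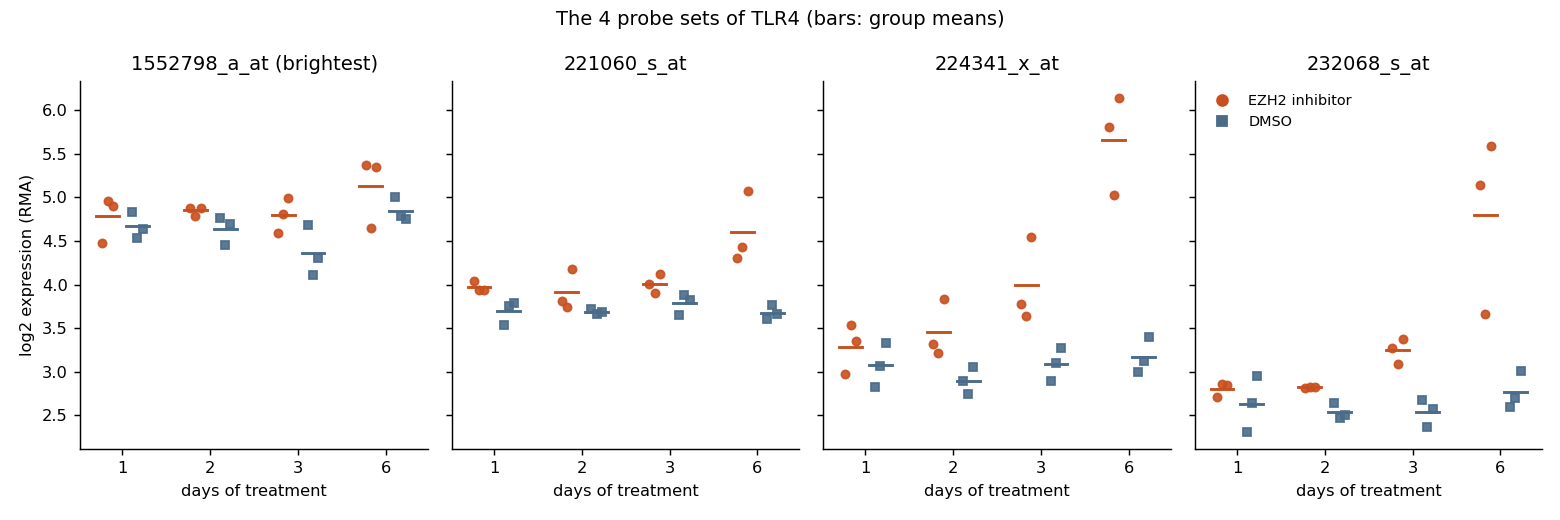
Log2 expression (RMA) of the 4 probe sets of TLR4 by days of treatment, with the EZH2 inhibitor as circles left of DMSO as squares and bars at the group means. On the brightest set the day 6 groups overlap, whereas on 224341_x_at the inhibitor arrays (5.03 to 6.14) lie above the DMSO arrays (3.00 to 3.40).

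LY96, the co-receptor that holds lipopolysaccharide on TLR4, rose as well. It read 8.13, 8.52 and 8.16 with the inhibitor at day 6, against 5.58, 5.69 and 5.78 with DMSO, and all inhibitor arrays lay more than 2 log2 units above all DMSO arrays. The differences were 0.22, 1.04, 1.41 and 2.59 at days 1, 2, 3 and 6, called from day 2 on (adjusted p = 0.00015, 9.6e-07 and 1.1e-11). CD14, which hands lipopolysaccharide to this complex and is also a myeloid marker, was lower at day 6 (4.18, 3.98 and 4.27 with the inhibitor, 4.48, 4.51 and 4.72 with DMSO, -0.42 ± 0.14, adjusted p = 0.014). The CD14 signal was dim, with all these values below the array medians of 4.958 to 5.032.

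**Figure D4:**
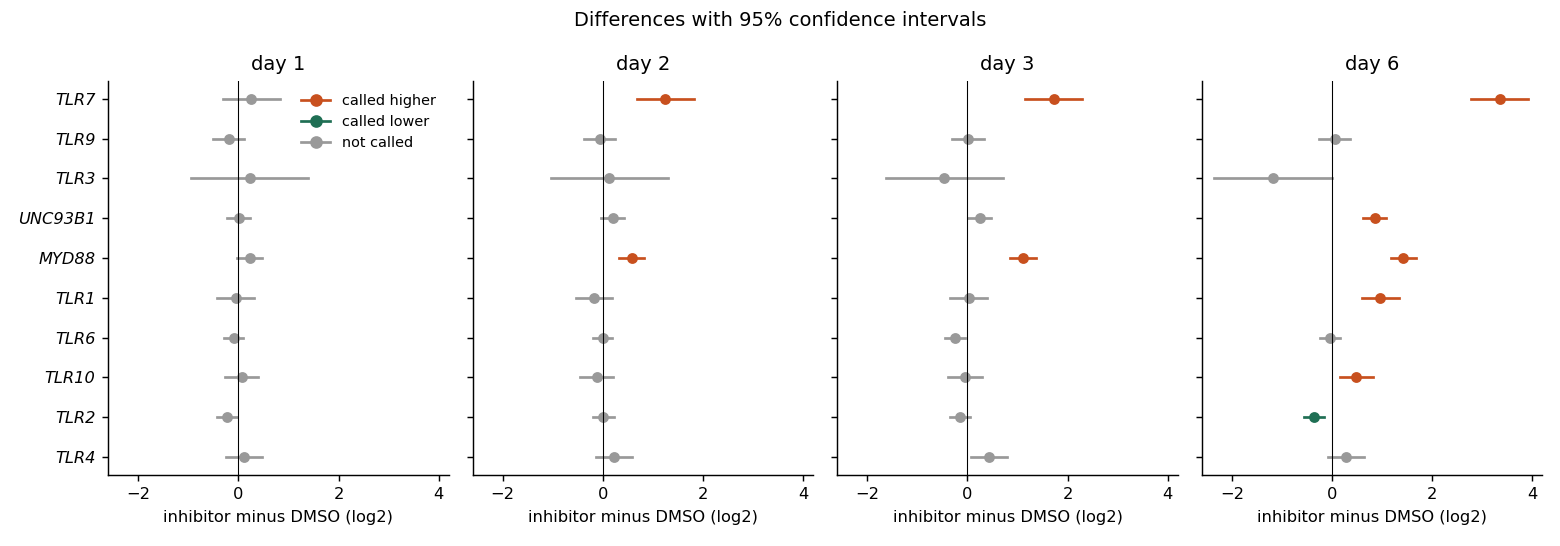
Inhibitor minus DMSO (log2) of the 10 genes at days 1, 2, 3 and 6, with points at the fitted difference and lines for its 95% confidence interval, orange where called higher, green where called lower and grey where not called. TLR7 reaches 3.35 and MYD88 1.42 at day 6, and the wide TLR3 interval runs from -2.35 to -0.01.

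Averaged over the 4 days, 4 members were higher (TLR7, MYD88, UNC93B1 and TLR4) and 1 was lower (TLR2), against 44.5% of all genes called, 17.1% higher and 27.4% lower. With the replicate block TLR3 was called lower in that average too (-0.32, adjusted p = 0.000344). The inhibitor difference was larger at day 6 than at day 1 for 4 members, TLR7, MYD88 (1.19 ± 0.17, adjusted p = 1.4e-05), TLR1 and UNC93B1 (0.83 ± 0.16, adjusted p = 0.00028), and smaller for 0. For UNC93B1 this was not called with the mean of its probe sets (0.59, adjusted p = 0.0813). The replicate block added TLR10 (0.41, adjusted p = 0.0316) and TLR3 (-1.41, adjusted p = 3.82e-06). Within the inhibitor arm, 5 members were higher at day 6 than at day 1 (TLR7, MYD88, TLR1, UNC93B1 and TLR6), against 41% of all genes called, 16.9% higher and 24% lower. TLR6 (0.24, adjusted p = 0.042) lost that call without any single array of the 6. With the replicate block 7 members were higher and 1 lower in that comparison, with TLR10 (0.40, adjusted p = 0.00297), TLR9 (0.21, adjusted p = 0.0299) and TLR3 (-1.21, adjusted p = 1.26e-07) called in addition. The shares of all genes just given come from the fit without the block, so they are no background for the blocked counts. These comparisons share their day 1 and day 6 arrays with those above.

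The proteins that help the receptors fold, travel and be cut were next. Of 21 accessory and trafficking genes, 0, 3, 6 and 10 were higher and 0, 0, 1 and 4 lower at days 1, 2, 3 and 6, with a day 6 median of 0.21 against -0.109 over all genes. Over all genes, 0.485%, 4.39%, 16.3% and 45.4% were called on these days, and these shares (at day 6, 18.5% higher and 26.9% lower) are the background of this and the following lists. CTSB and CTSS, endosomal proteases of the cathepsin family, rose by 2.19 ± 0.14 (adjusted p = 4.3e-11) and 1.18 ± 0.17 (adjusted p = 7.1e-06). CTSB read 8.55, 8.54 and 8.97 with the inhibitor, against 6.35, 6.57 and 6.57 with DMSO, and was called from day 2 (0.95, adjusted p = 0.00018). TASL, an adaptor that links endosomal receptors to IRF5, rose by 1.15 ± 0.13 at day 6 (adjusted p = 1.6e-07) and by 0.62 at day 2 (adjusted p = 0.0048).

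Among 16 measured adaptors and proximal kinases, 6 were higher and 2 lower at day 6, near the 45.4% of all genes called, with a median of 0.15. At days 1, 2 and 3, 0, 0 and 3 were higher and 0, 1 and 1 lower. MAP3K1, a kinase upstream of JNK, rose by 1.16 ± 0.10, TAB2, a subunit of the TAK1 kinase complex, by 0.82 ± 0.08, and TANK, a TRAF-binding scaffold, by 0.61 ± 0.11 (adjusted p = 2e-09, 2.5e-08 and 5.9e-05). SARM1, a TIR domain protein described as a brake on TICAM1, fell to 6.66, 6.75 and 6.75 with the inhibitor, against 7.83, 7.93 and 7.87 with DMSO (-1.16 ± 0.10, adjusted p = 5.6e-09). TICAM2, PIK3AP1, IRAK4 and UBE2V1 were not analysed here.

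Of 15 IKK, NF-kB and IRF genes downstream, 8 were higher and 2 lower at day 6, against 18.5% of all genes higher and 26.9% lower, with a median of 0.43. At days 1, 2 and 3, 0, 1 and 6 were higher and 0, 1 and 2 lower. IRF7, the interferon regulatory factor that acts with MYD88 in TLR7 and TLR9 signalling, read 9.97, 10.04 and 9.93 with the inhibitor at day 6, against 7.67, 8.16 and 8.45 with DMSO. The groups did not overlap and IRF7 rose by 1.89 ± 0.30 (adjusted p = 2.2e-05). IRF1, an interferon-induced transcription factor, rose by 1.83 ± 0.18, REL, the NF-kB subunit c-Rel, by 1.06 ± 0.13, and IKBKB, a catalytic IKK subunit, by 0.95 ± 0.10 (adjusted p = 2.9e-08, 6e-07 and 9.6e-08).

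Of 20 measured negative regulators, 7 were higher and 4 lower at day 6, near the 45.4% of all genes called, with a median of 0.16. At days 1, 2 and 3, 0, 1 and 2 were higher and 0, 0 and 3 lower. SOCS1, a suppressor of cytokine signalling, rose by 1.95 ± 0.21 (adjusted p = 7.3e-08) and CYLD, a deubiquitinase, by 1.61 ± 0.10 (adjusted p = 3.8e-11). DUSP1, a MAPK phosphatase, fell to 6.65, 6.90 and 6.96 with the inhibitor, against 8.12, 7.93 and 7.57 with DMSO (-1.04 ± 0.12, adjusted p = 2.7e-07), and PTPN6, the phosphatase SHP-1, fell by 1.00 ± 0.16 on the log2 scale (adjusted p = 2.8e-05). ZC3H12A was not analysed here.

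Of 25 measured genes that B cells induce on Toll-like receptor stimulation, 7 were higher and 5 lower at day 6, near the 45.4% of all genes called, with a median of -0.01, and at days 1, 2 and 3, 0, 1 and 4 were higher and 0, 2 and 3 lower. The costimulatory ligand CD86 read 8.77, 9.42 and 8.99 with the inhibitor, against 6.14, 6.22 and 6.27 with DMSO (2.85 ± 0.19, adjusted p = 7.8e-11). CD40, a costimulatory receptor, rose by 1.80 ± 0.17 (adjusted p = 9.8e-09).

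The cytokine genes LTA and TNF were lower. LTA read 6.53, 6.70 and 6.41 with the inhibitor, against 9.52, 9.56 and 9.06 with DMSO (-2.83 ± 0.22, adjusted p = 7.6e-10). TNF read 6.84, 6.39 and 6.40 with the inhibitor, against 9.02, 9.28 and 8.53 with DMSO (-2.40 ± 0.33, adjusted p = 3.6e-06). In neither did the groups overlap. CCL3 and BIRC3 were not analysed here.

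Among 5 receptors of the interleukin-1 and interleukin-18 family that also signal through MYD88, 0 were higher and 1 was lower at day 6, IL1RL2 (-0.24 ± 0.09, adjusted p = 0.04), a call that most alternatives lost. All 5 were dim, with day 6 group means from 2.83 to 4.93, below the array medians of 4.958 to 5.032. Of the remaining Toll-like receptors, TLR8 was lower as given above and TLR5 was not called (-0.15 ± 0.10, adjusted p = 0.24).

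**Figure D5:**
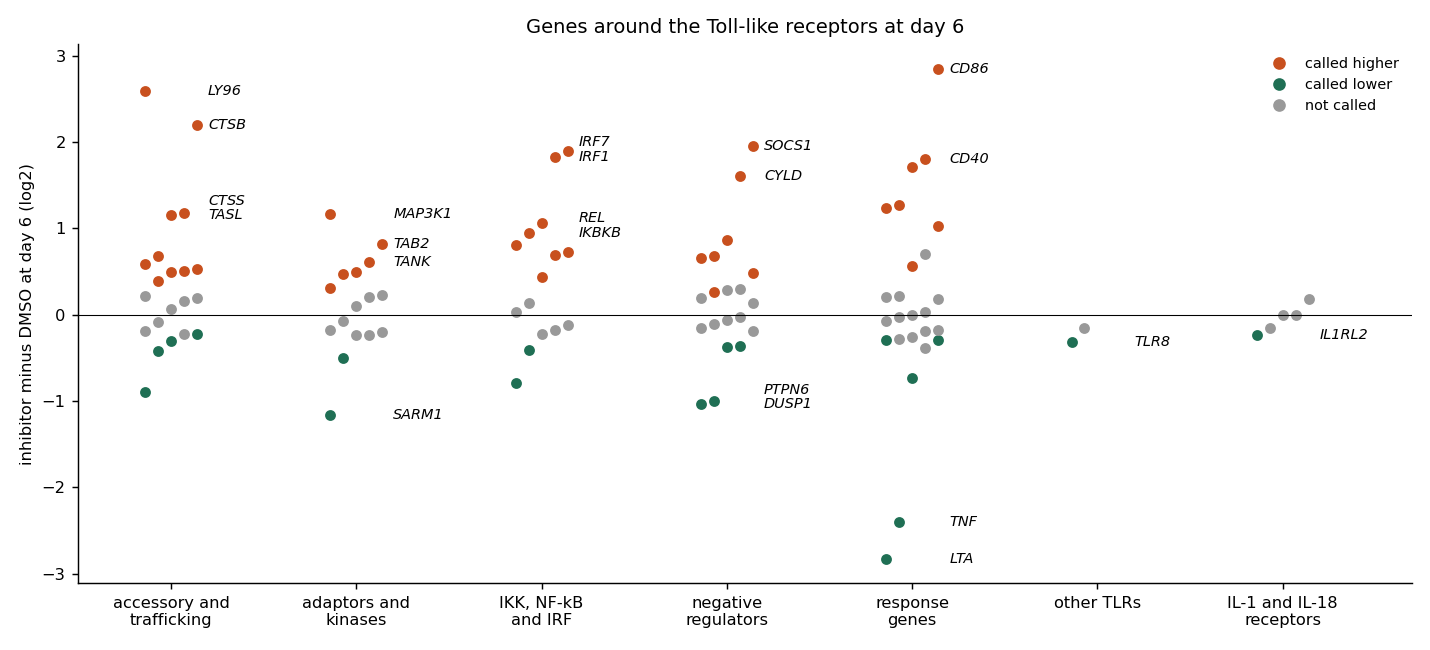
Inhibitor minus DMSO at day 6 (log2) for the measured genes of 7 lists around the receptors, 1 point a gene, orange where called higher, green where called lower and grey where not called, with up to 4 called genes named per list. LY96 (2.59) and CD86 (2.85) lie highest, and TNF (-2.40) and LTA (-2.83) lowest.

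Genes with time courses closest to the called members were found from the 8 group means, each gene centred on its own mean, by root mean square distance in log2 units. For MYD88 these were HLA-C (0.057), ENDOD1 (0.061) and GABPB1-AS1 (0.066), and for UNC93B1 they were GRN (0.055), ZNF580 (0.059) and ARHGAP9 (0.060). For TLR7 the nearest was LGALS3BP (0.323), then RASSF6 (0.410) and MCC (0.418). For TLR1 the nearest were RGL2 (0.127), SLC22A4 (0.129) and ZSWIM8 (0.130), for TLR10 MICAL3 (0.036), CIRBP (0.040) and PABIR2 (0.041), and for TLR2 TRPA1 (0.021), CALB2 (0.035) and GPBAR1 (0.036). Distances shrink for genes that vary little, so they are not comparable between members.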

How the data were processed

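Biotin-labelled total RNA was hybridised to 24 Affymetrix U133 Plus 2 arrays. Per the submitters' processing notes, the authors made the deposited log2 values of 54613 probe sets by RMA in R 2.10.1. The log base is not given in the sources used here, but values from 1.72 to 14.33 fit base 2. Precision is limited by having 3 arrays a group.

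Probe sets with 1 gene symbol (41091 of 42892 with a gene) were used, symbols were updated by Entrez ID for 41037, and the probe set with the highest mean stood for each of 19775 genes. Differences were fitted with limma 3.58.1 in R 4.3.3 (data.table version 1.17.8, statmod 1.5.0), with 1 coefficient for each of the 8 groups and eBayes with 16 residual and 5.22 prior degrees of freedom. The 2-sided p-values were Benjamini-Hochberg adjusted across all genes, and a gene was called under 0.05. With 3 arrays a group, the smallest p of an exact permutation test is 0.1. The fit was also run on simulated data with independent noise on each array. That run leaves out the pattern shared by replicate number and cannot judge its effect.

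Equal replicate numbers were checked from deviations from group means. The median correlation was 0.24 for equal and -0.13 for different numbers. Inhibitor and DMSO arrays of 1 number and day correlated at 0.19 to 0.55 at days 1, 3 and 6. At day 2 the correlations were 0.36, 0.04 and 0.43 for numbers 1, 2 and 3, so pairing was unclear for number 2 of that day. The fit without the block was kept, and the blocked value is given where it changes a call.

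The members, lists and tests were chosen with earlier results of these data known. Named list genes are up to 4 called members per list with the largest difference at day 6, and the nearest genes are the 3 with the smallest distance, without uninformative symbols (LOC, LINC, KIAA and FLJ names, numbered open reading frames). Neighbours and genes named for contrast were chosen after their values were seen. Alternatives changed the probe set summary, the normalization, a filter on dim genes, the block, array weights, the spread, the arrays in the fit and each array in turn.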

Additional observations from a re-analysis of the deposited data

Results flagged for a closer look

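The inhibitor effect differed between day 6 and day 1, by a limma test of that difference over all genes, for 4 of the 10 genes, against 26.7% of all genes called, 12.3% higher and 14.4% lower. TLR7 differed by 3.09 on the log2 scale (adjusted p = 2.5e-06), with effects of 3.35 at day 6 and 0.26 at day 1. MYD88 differed by 1.19 (adjusted p = 1.4e-05), with 1.42 and 0.23. TLR1 differed by 1.01 (adjusted p = 0.0037), with 0.96 and -0.05. UNC93B1 differed by 0.83 (adjusted p = 0.00028), with 0.85 and 0.01. In each of the 4 all inhibitor arrays lay above all DMSO arrays at day 6. The inhibitor value therefore had to exceed the DMSO value of the same replicate number in 3 of 3. Of all genes, 52.2% had groups without overlap at day 6, in either direction.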

How the results depend on the processing

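The calls of TLR7, MYD88, UNC93B1, TLR1 and TLR2 at day 6 kept their direction and their side of the threshold in each of the 17 alternatives run, and no alternative gave a called value of the opposite sign. The counts moved more. For DMSO day 6 minus day 1 the reported fit called 57 genes, the replicate block 199, array weights 92 and a fit of only the compared groups 31, and the members called went to 0 when probe sets were averaged and with a trended and robust spread. At day 1, 96 genes were called, against 53 with the mean of probe sets, 246 with the replicate block, 301 with the block within each day, 160 with array weights and 46 with the limited fit. At day 2, 869 were called, against 1649, 1866 and 1441 with the block, the block within each day and array weights, and with the mean of probe sets the members called were 1 in place of 2. At day 3, 3221 were called, against 4853 with the block within each day, where the members called were 4 in place of 2. The members called were 5 with the replicate block and 4 with array weights. Counts over all genes with those settings are not given for day 3, so these member counts have no background beside them. Within the inhibitor arm the replicate block called 8 members in place of 5. No count over all genes with that block is given here, so this rise has no background beside it.

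Without single arrays (or without all arrays numbered 3, a setting chosen after seeing the data) the genes and members called ranged from 23 to 41 and 0 to 1 for the DMSO arm, 7102 to 7565 and 4 to 5 for the inhibitor arm, 32 to 87 and 0 to 0 at day 1, 505 to 720 and 1 to 2 at day 2, 2044 to 3067 and 2 to 3 at day 3, and 7505 to 8431 and 5 to 7 at day 6. For the mean over days they were 8264 to 8743 and 5 to 6, and for day 6 minus day 1 of the effect 4682 to 5056 and 4 to 5. These runs also use fewer arrays, and the cause of these shifts was not tested.

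Leaving out 1 array also brought calls that the reported fit lacks, for TLR1 averaged over days (inhibitor array 3 of day 1, 0.0413, inhibitor array 2 of day 3, 0.0456, DMSO array 1 of day 6, 0.0447, or inhibitor array 2 of day 6, 0.0371), TLR6 averaged over days (DMSO array 3 of day 2, 0.0434), TLR4 at day 3 (DMSO array 1, 0.0317), TLR10 for day 6 minus day 1 of the effect (DMSO array 3 of day 1, 0.0463), and, within the inhibitor arm, TLR10 (array 2 of day 1, 0.0428), TLR3 (array 3 of day 1, 0.0267) and TLR4 (array 2 of day 6, 0.00635), each an adjusted p from limma.

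The replicate block changed no call of a member other than those of TLR3, TLR6, UNC93B1, TLR1, TLR10 and TLR9 (the last only within the inhibitor arm). By arrays, 21 of 24 correlated best with their own number. TLR4 has no value with the 40% dimmest genes left out, and the mean over 4 days uses all arrays, so no limited fit was run for it. RMA gives no signal over background, so the depth behind dim values such as TLR2 and TLR8 is unknown.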
